A study of Mus musculus with 90 samples.

Results

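The comparison described here is between the hypothalamus of 5 resident male mice killed 60 min after an encounter with an intruder and that of 5 control residents killed at the same interval. The 10 libraries were chosen by their titles, which give region, time and condition, from the 90 RNA-seq libraries of the study, which cover 3 brain regions and 3 intervals. All residents were C57BL/6J males that had shared their cage with a female of the same strain to establish a territory, and the female was taken out before the test. In the intruder group an unfamiliar BALB/cJ male was placed in the resident's cage inside a wire mesh cage for 5 min, which kept the 2 males from contact. In the control group the same mesh cage held a paper cup. The labels used here give no age. Each library is 1 animal, numbered 1 to 5 in the intruder group and 1, 2, 3, 5 and 6 in the control group, and all 10 animals also gave an amygdala and a frontal cortex library.

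The hypothalamus links the detection of another animal to hormone release, feeding, body temperature, aggression and reproduction, through neurons that each release 1 or more peptides. When neurons fire strongly, immediate early genes such as Fos are transcribed within minutes and their mRNA is gone again soon after, while a wave of delayed genes follows. A social threat can also activate the stress axis, in which Crh from the hypothalamus leads to the release of glucocorticoid from the adrenal gland, and glucocorticoid in turn induces genes such as Fkbp5 and Tsc22d3 in many tissues.

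The 10 libraries held between 43206285 and 54079079 reads assigned to genes, and between 21443 and 21697 genes had at least 1 read. Values are given as counts per 1000000 gene reads (CPM), scaled for library composition, so levels are comparable between libraries but not between genes of different length. Over depth, genes detected, reads outside genes, ambiguous reads, reads with several positions and the mitochondrial share, the groups overlapped, and the exact two-sided permutation tests gave p between 0.325 and 0.937 (all 6 adjusted p = 0.937). The file headers carry a library index: all 5 controls and intruder 3, 4 and 5 share 1 leading index, and intruder 1 and 2 have another one. Hypothalamic peptides were present in all 10 libraries. Pmch, melanin-concentrating hormone, lay between 227 and 506 CPM, Oxt, oxytocin, between 127 and 246 CPM, and Avp, vasopressin, between 161 and 329 CPM.

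Genes known from tissue around the hypothalamus differed between libraries of the same group, and the cause was not tested. Control 6 stood apart. Ttr, the thyroid hormone carrier made by choroid plexus, was at 194 CPM in control 6 and between 0.305 and 10.3 CPM in the other 9 libraries, and Gh, growth hormone of the pituitary, was at 16.8 CPM in control 6 and at most 0.513 CPM elsewhere. Lhx6, a factor of forebrain interneurons, was at 65.5 CPM in control 6 and between 4.98 and 30.3 CPM in the others. It is also on the list of hypothalamic factors used below, so it does not mark surrounding tissue alone. The summed level of 8 choroid plexus genes was 257 CPM in control 6 and 32.2 to 55.5 CPM in the others, and that of 8 striatal genes was 228 CPM against 136 to 169 CPM.

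The values of Lhx6 and Foxb1, chosen after they were seen, also differed between libraries. Lhx6 was at 18.9, 8.64, 7.03, 23.8 and 65.5 CPM in controls 1, 2, 3, 5 and 6 and at 13.7, 5.22, 4.98, 16.1 and 30.3 CPM in intruder 1 to 5. Foxb1, a factor of the mammillary region at the back of the hypothalamus, was at 5.36, 17.9, 5.801, 11 and 2.70 CPM in the controls and at 3.43, 24.4, 24.9, 8.12 and 5.64 CPM in the intruder group. Lhx6 was lowest and Foxb1 highest in intruder 2 and 3, control 6 had the opposite order, and control 3 was low in both. Meningeal genes had another order of libraries. Ptgds, prostaglandin D synthase of the meninges, was at 935, 244, 280, 779 and 325 CPM in the controls and at 744, 1568, 941, 696 and 260 CPM in the intruder group, so low and high libraries occurred in both groups.

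**Figure D1:**
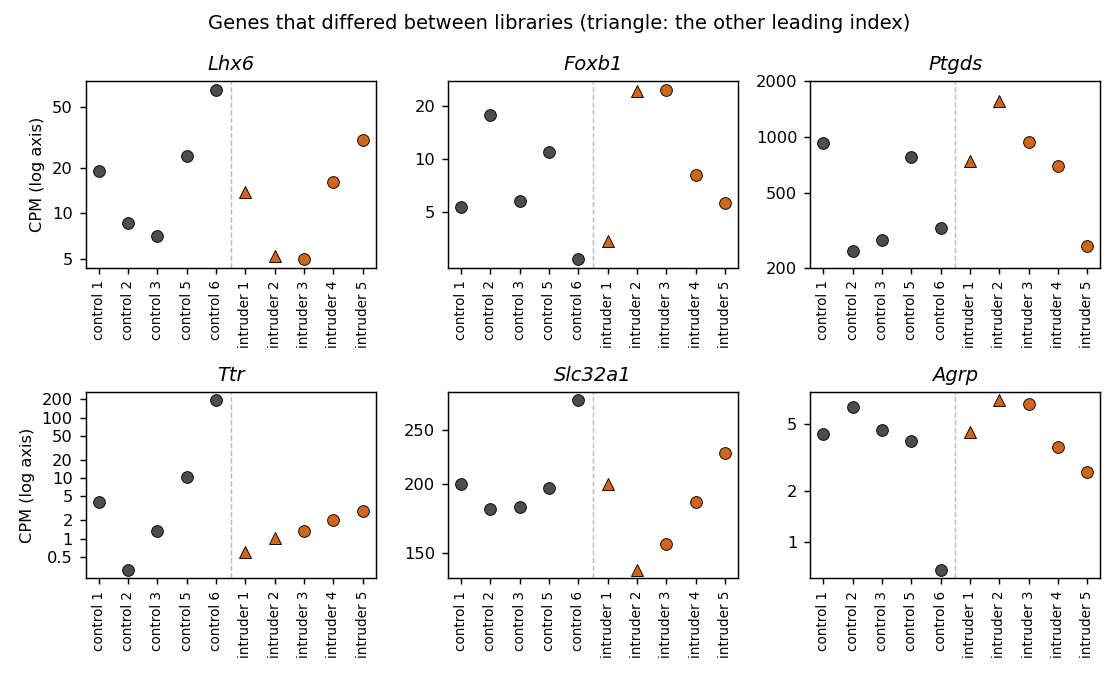
CPM, on a log axis, of 6 genes that differed between libraries in each of the 10 libraries of the hypothalamus at 60 min, controls in grey and intruder in orange, triangles for the 2 libraries with the other leading index. Lhx6 is low where Foxb1 is high (intruder 2 and 3), Ttr and Slc32a1 are highest and Agrp is lowest in control 6, at 194, 283 and 0.687 CPM, and the ranges of the 2 groups overlap in each gene.

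No gene was called as different between intruder and control at 60 min. Of 17676 genes tested with edgeR's quasi-likelihood test, 0 had an adjusted p below 0.05 (0% of those tested), and the smallest adjusted p was 0.9999. At an unadjusted p below 0.05 there were 393 genes, of which 141 were higher in the intruder group (0.798% of those tested) and 252 were lower (1.43%). Before adjustment, 348 genes had a p below 0.05 in DESeq2 and 380 in limma voom, and both called 0. Intruder and control libraries did not overlap in 45 genes that were higher (0.255%) and 41 that were lower (0.232%). Log2 fold changes were above 0 in 8639 genes (48.9%), with a median of -0.00174. The fitted variation between animals was 11%, and the 95% confidence interval of the log2 fold change had a median half-width of 0.17, with a 90th percentile of 0.61. These widths are before adjustment, and a call after adjustment over all genes takes a larger change. Changes of this size and above could therefore be missed with 5 animals in each group.

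Among the 12 genes with the smallest unadjusted p among those that were higher, which are given as uncalled, Tmem267, a transmembrane protein, came first. It was at 11, 9.90, 9.31, 9.75 and 9.55 CPM in the controls and at 14.9, 14.3, 15, 11.3 and 13.2 CPM in the intruder group. All 5 intruder libraries lay above all 5 controls, and the log2 fold change was 0.47 ± 0.107 (SE) with an unadjusted p of 0.000153. Ddx20, an RNA helicase of the complex that assembles small nuclear ribonucleoproteins, was at 17.8 ± 0.355 CPM in controls and 19.5 ± 0.660 CPM in the intruder group (SD, n = 5 each), again without overlap, at a log2 fold change of 0.13. Ccdc142os and Gm12059, both at about the level of 1 CPM, also did not overlap, with log2 fold changes of 0.39 and 0.36. The name of Ccdc142os marks it as an opposite-strand transcript, and whether the reads were counted by strand is not given in the sources used here, so its reads cannot be told apart from those of its partner gene. The other 8 overlapped: Tpm4, a tropomyosin (0.14), 5031425E22Rik (0.17), Rbks, ribokinase (0.42), Angpt1, the ligand of the endothelial receptor Tek (0.17), Grtp1 (0.26), Tigd2 (0.14), Serpinb6b, a protease inhibitor (0.41), and Nr1d2, a repressor of the circadian clock (0.11), each value a log2 fold change.

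The 12 genes with the smallest unadjusted p among those that were lower began with Ttr (log2 fold change -4.73) and Gh (-5.15), both set by control 6 as given above. Without control 6 their log2 fold changes were -1.35 and -0.58. The log2 fold changes of the other 10 lay between -0.45 and -0.14. Pgap2, an enzyme that remodels the lipid anchor of membrane proteins, was at 18, 19.3, 17.6, 18.1 and 18 CPM in the controls and at 15.7, 17.1, 17.1, 16.9 and 16 CPM in the intruder group, a log2 fold change of -0.14 ± 0.0382 (SE). Kank1, an adaptor of the actin cytoskeleton, was at 36.4 ± 1.71 CPM in controls and 32.5 ± 2.02 CPM in the intruder group (SD). Ppp1r3e, a subunit that targets protein phosphatase 1 to glycogen, was at 3.10 ± 0.120 CPM in controls and 2.49 ± 0.184 CPM in the intruder group (SD), a log2 fold change of -0.32. Intruder and control libraries did not overlap in any of these 3 genes, nor in 1700123M08Rik (-0.45) and Psg23 (-0.37), a member of a family of near-identical pregnancy-specific glycoprotein genes whose reads may be split between copies. Kif1c, a kinesin motor (-0.18), Llgl1, a cell polarity protein (-0.14), Slc16a3, a lactate exporter (-0.36), Abhd4, an enzyme of N-acyl ethanolamine synthesis (-0.14), and Slc43a2, an amino acid transporter (-0.19), overlapped. In Abhd4 the difference lay in controls 2 and 3, at 110.4 and 106.5 CPM, while the other 3 controls were at 89.8 to 93.4 CPM and the intruder group at 86.01 to 90.02 CPM. Controls 2 and 3 were also the highest in Slc43a2, at 90.98 and 87.3 CPM, and control 5, at 71.9 CPM, lay within the intruder range. All 24 genes kept the sign of their difference in each of the alternative fits that tested them, including the fit of the libraries with 1 leading index. The 24 were picked by their p in these same libraries, so the kept sign adds no support.

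**Figure D2:**
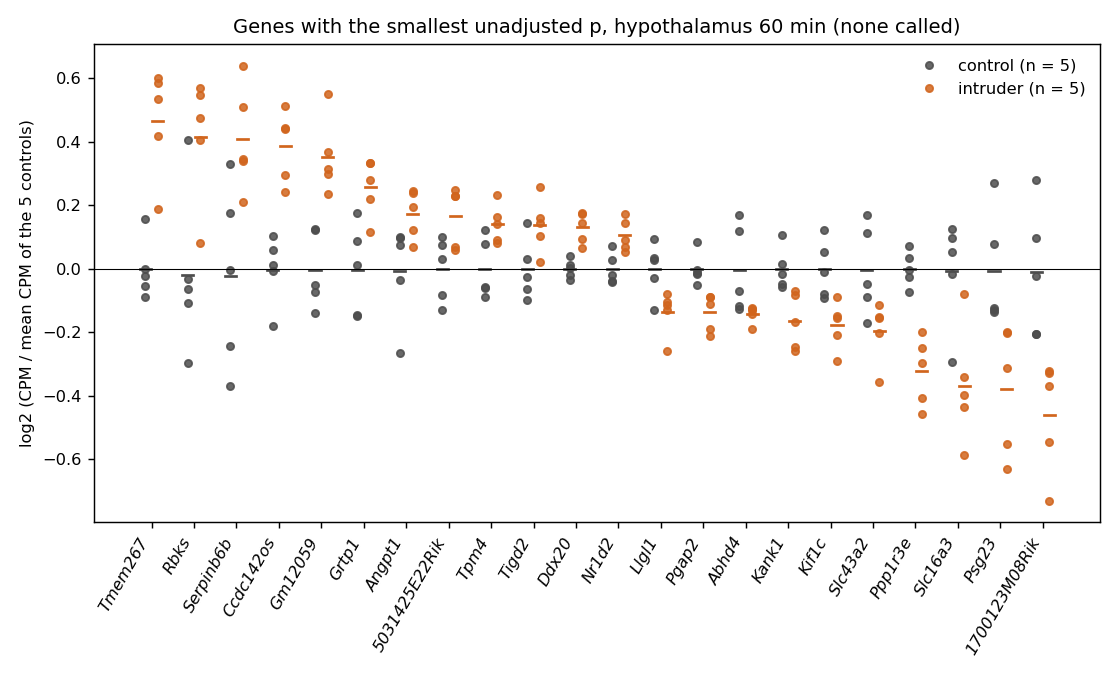
Log2 ratio of each library's CPM to the mean of the 5 controls, for 22 of the 24 genes with the smallest unadjusted p in either direction (Ttr and Gh, set by control 6, are left out), dots for libraries and bars for group means. Tmem267 has the lowest p, at a log2 fold change of 0.47, and the intruder and control dots do not overlap in 4 of the higher and 5 of the lower genes.

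Of the other genes without overlap between the groups, 4 are given here that were picked after their values were seen. Mid1, a microtubule-bound ubiquitin ligase, was at 17.9, 19, 34.4, 25.8 and 23.5 CPM in the controls and at 36.8, 48.8, 35.2, 41.2 and 35.3 CPM in the intruder group, a log2 fold change of 0.71 ± 0.281 (SE). Ndn, necdin, an imprinted gene highly expressed in hypothalamic neurons, was at 465 ± 42.4 CPM in controls and 546 ± 18.7 CPM in the intruder group (SD), a log2 fold change of 0.23. Mki67 and Top2a, both markers of dividing cells, were lower, at 1.28 ± 0.127 against 0.940 ± 0.109 CPM and at 1.39 ± 0.126 against 1.08 ± 0.0703 CPM (SD, control against intruder). In a list of 14 cell division genes, put together after these 2 were seen and including them, these were the 2 without overlap (0.232% of all genes were lower without overlap), and 3 of the 14 had a log2 fold change above 0 (48.9% of all genes), with a median of -0.09. The summed level of the list overlapped between the groups, at 51.9 to 55.5 CPM in controls and 53.2 to 55.2 CPM in the intruder group.

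Immediate early genes showed no common shift at 60 min. Of the 26 on the list 0 were called, 0 had an unadjusted p below 0.05, 15 had a log2 fold change above 0 (48.9% in all genes), and the median was 0.01. Fos, the classical marker of recent neuronal activity, was at 23.2, 28.8, 26.2, 23 and 20.5 CPM in the controls and at 25.9, 18.5, 26.3, 20.1 and 25.3 CPM in the intruder group. The ranges overlapped almost wholly, and the log2 fold change was -0.07 ± 0.159 (SE), with a 95% confidence interval from -0.39 to 0.26. Its sign turned when control 2 or intruder 2 was left out. Egr1 lay between 60.8 and 79.2 CPM in controls and between 46.5 and 76.3 CPM in the intruder group, and Jun between 44.6 and 55.4 CPM and between 45.8 and 58.2 CPM. The members with the smallest p pointed in different directions: Atf3 was at 0.962 ± 0.192 CPM in controls and 1.25 ± 0.368 CPM in the intruder group (SD), Junb had a log2 fold change of -0.19 and Nr4a1 one of -0.20. In the separate animals killed at 30 min (3 controls and 5 of the intruder group), 22 of the 26 had a log2 fold change above 0, with a median of 0.17 (48.5% in all genes at 30 min), and at 120 min 20 of 26, with a median of 0.13 (51% in all genes at 120 min).

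Delayed activity genes, which include regulators of signalling and secretory proteins, likewise held no called gene. Of 30 tested, 19 had a log2 fold change above 0 (48.9% in all genes), the median was 0.05, and 0 had an unadjusted p below 0.05. When 1 library was left out the count ran from 17 to 20 and the median from 0.02 to 0.07. Crem, a repressor of cAMP-driven transcription, was at 15.4 ± 0.959 CPM in controls and 17.3 ± 1.45 CPM in the intruder group (SD), and Rgs4, a brake on G protein signalling, at 152 ± 14.5 and 174 ± 18.2 CPM. Both overlapped between the groups.

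The genes that glucocorticoid induces varied between animals of the same group. None of the 22 was called, and 21 had a log2 fold change above 0, with a median of 0.12, but this count rested on intruder 1 and 2, the 2 libraries with the other leading index. Among the libraries of 1 leading index, 9 of 22 were above 0, with a median of -0.02, against 48.5% of all genes in that fit, and without control 6 the count was 15 of 22. Fkbp5, a co-chaperone that restrains the glucocorticoid receptor, was at 45.6, 46.6, 36.1, 38 and 30.8 CPM in controls 1, 2, 3, 5 and 6 and at 68.1, 58.5, 44.8, 39.4 and 31.8 CPM in intruder 1 to 5. Intruder 1 and 2 were above every control, intruder 3 and 4 lay within the control range and intruder 5 was near its lower end. The log2 fold change was 0.30 ± 0.163 (SE), and -0.03 without intruder 1 and 2.

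Other members of the list, chosen after their values were seen, also had high values in intruder 1 and 2. Zbtb16, a zinc finger factor, was at 24, 29.4, 13.2, 10.6 and 8.63 CPM in the controls and at 38.8, 28.1, 10.1, 7.92 and 8.86 CPM in the intruder group. Plin4, a lipid droplet protein, was at 23.9, 23.7, 22, 17.6 and 12 CPM in the controls and at 42.1, 39.1, 17.7, 14.4 and 11.4 CPM in the intruder group. In both genes intruder 1 and 2 and controls 1 and 2 were at the high end and intruder 4 and 5 and control 6 at the low end, and controls 1 and 2 have the same leading index as the other controls. Hif3a had its 2 highest values in intruder 1 and 2 as well, at 19.7 and 20.6 CPM, and its 2 lowest in intruder 4, at 7.68 CPM, and control 6, at 8.13 CPM. Over all 22 genes, the highest library was intruder 1 in 14 and intruder 2 in 4, and the lowest was intruder 4 in 7 and control 6 in 4. The fit with the leading index as a term gave the same values, 9 of the 22 above 0, a median of -0.02 and -0.03 for Fkbp5. At 60 min this term sets intruder 1 and 2 apart, so this fit repeats the one without them and is no second check. In these 10 libraries the other index occurs in intruder 1 and 2 alone, so for them the encounter and what the index marks cannot be told apart. Errfi1, an inhibitor of the EGF receptor and the member with the smallest unadjusted p (0.0393), was at 37.9 ± 3.89 CPM in controls and 42 ± 2.52 CPM in the intruder group (SD) and kept a log2 fold change of 0.11 among libraries of 1 index. Tsc22d3, a glucocorticoid-induced leucine zipper protein, lay between 149 and 181 CPM in controls and between 141 and 201 CPM in the intruder group.

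**Figure D3:**
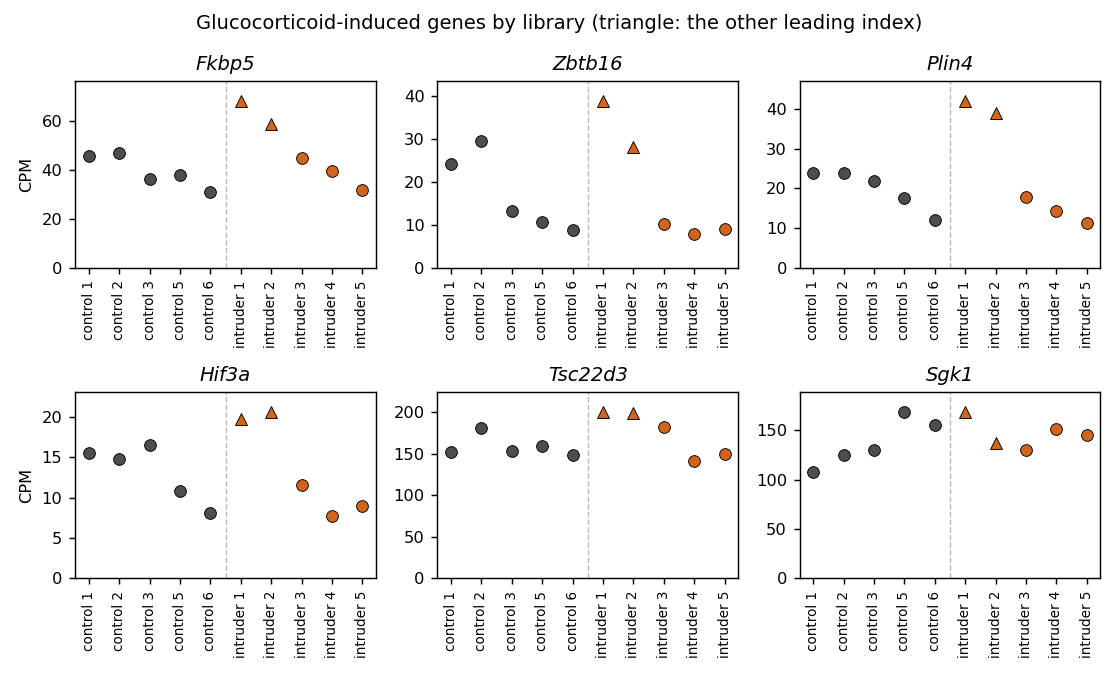
CPM of 6 glucocorticoid-induced genes in each of the 10 libraries, controls in grey and intruder in orange, with triangles for intruder 1 and 2, which carry the other leading index. Fkbp5, Zbtb16, Plin4 and Hif3a are high in intruder 1 and 2. The lowest libraries are control 6 and intruder 4 and 5, except in Fkbp5, where intruder 4 lies within the control range, and Sgk1 does not follow this order.

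Of these genes, 3 carry the consensus site of the glucocorticoid receptor next to their start, and their sequences are shown because the list is defined by the action of this receptor. Promoter windows of 300 bases (250 before to 50 after a start site) were taken from RefSeq on GRCm38.p6, and 19 of the 22 genes had 1 or more. The letters GNACANNNTGTNC, which read the same on both strands, were found in Map3k6, Mt1 and Sgk1 (3 of 19 genes with a window), against 0.537% of the 27025 genes with a window in all. The 250 bases before the start follow 5′ to 3′, with the match in capitals; Map3k6 is at chr4:133240568-133240817, Mt1 at chr8:94178839-94179088 and Sgk1 at chr10:21993640-21993889, all on the + strand.
Map3k6: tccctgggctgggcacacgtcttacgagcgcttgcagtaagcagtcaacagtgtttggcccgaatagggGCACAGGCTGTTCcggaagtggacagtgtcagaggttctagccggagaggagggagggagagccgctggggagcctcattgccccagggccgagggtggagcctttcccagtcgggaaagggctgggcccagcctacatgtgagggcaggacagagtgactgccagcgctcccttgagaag
Mt1: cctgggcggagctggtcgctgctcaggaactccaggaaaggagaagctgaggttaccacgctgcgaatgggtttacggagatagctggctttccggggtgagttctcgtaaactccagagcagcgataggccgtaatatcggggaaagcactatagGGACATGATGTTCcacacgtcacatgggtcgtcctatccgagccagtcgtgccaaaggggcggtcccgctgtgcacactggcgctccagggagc
Sgk1: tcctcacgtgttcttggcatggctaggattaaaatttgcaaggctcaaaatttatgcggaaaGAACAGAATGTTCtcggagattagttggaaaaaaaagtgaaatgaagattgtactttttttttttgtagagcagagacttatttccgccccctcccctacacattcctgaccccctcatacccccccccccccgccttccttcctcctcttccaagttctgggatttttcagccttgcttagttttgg
Sgk1 has several start sites, and the other windows listed for it held no match. A match is only a string of letters and does not show that the receptor binds there.

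The 3 genes with the site did not share 1 pattern. Map3k6, a kinase of the stress pathway, was at 3.85, 4.09, 2.88, 2.24 and 2.25 CPM in the controls and at 5.15, 4.36, 2.96, 2.81 and 2.44 CPM in the intruder group, with the highest values in intruder 1 and 2, as in Fkbp5. Sgk1, a kinase that regulates ion channels, was at 107, 125, 130, 168 and 156 CPM in the controls and at 169, 137, 130, 151 and 145 CPM in the intruder group, so that controls 1 and 2 were at the low end. Mt1, a metal-binding protein, was at 131 ± 11.5 CPM in controls and 131 ± 11.2 CPM in the intruder group (SD). The site of the cAMP pathway, TGACGTCA, was found in 2.03% of all genes with a window, and among the immediate early genes in Btg2 and Dusp1 (2 of 20 genes with a window). Among the glucocorticoid-induced genes it was found as often, in Arl4d and Errfi1 (2 of 19 genes).

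Among clock genes and heat shock genes 0 were called. Of 19 clock genes 16 had a log2 fold change above 0, with a median of 0.03 (48.9% in all genes), and 9 of 19 did so among libraries of 1 leading index (48.5% in all genes). Nr1d2 was at 147, 140, 142, 141 and 152 CPM in the controls and at 150, 163, 159, 154 and 151 CPM in the intruder group, and Bhlhe40, a repressor in the clock, at 61.2 ± 4.20 and 65.9 ± 3.22 CPM (SD). All 17 heat shock and cold response genes had a log2 fold change above 0, with a median of 0.05, 0 had an unadjusted p below 0.05, and between 14 and 17 stayed above 0 when 1 library was left out. Hspa5, the chaperone of the endoplasmic reticulum, was at 511 ± 43.4 CPM in controls and 542 ± 45.8 CPM in the intruder group (SD), and Bag3, a co-chaperone, at 14.9 ± 1.65 and 16.5 ± 2.24 CPM. At 30 min 2 of these 17 genes were above 0, and at 120 min 15 were, with a median of 0.25; the effect at 60 min differed from neither beyond the threshold in any of them.

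Neuropeptides, their receptors and the transcription factors that define hypothalamic neurons held 0 called genes. Of 35 peptide genes tested, 18 had a log2 fold change above 0 and none had an unadjusted p below 0.05. Crh, which starts the stress axis, was at 5.34, 4.16, 5.11, 7.87 and 13 CPM in the controls and at 6.03, 2.35, 4.13, 5.55 and 9.18 CPM in the intruder group. Its highest value was again in control 6, and the log2 fold change was -0.38 ± 0.464 (SE), and -0.04 without control 6. Oxt was at 246, 233, 226, 183 and 207 CPM in the controls and at 203, 127, 159, 211 and 236 CPM in the intruder group. Its log2 fold change was -0.22 ± 0.251 (SE), and -0.11 without intruder 2. It was also -0.11 with the leading index as a term, a fit that sets intruder 2 apart as well. The lowest Oxt values were in intruder 2 and 3, the libraries with the highest Foxb1. Avp was at 223 ± 39 CPM in controls and 222 ± 64.2 CPM in the intruder group (SD), and Pmch had a log2 fold change of 0.22 ± 0.214 (SE), which was 0.12 without intruder 3, 0.12 without control 6 and 0.37 without intruder 4.

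Agrp and Pomc, peptides linked to feeding and chosen after their values were seen, were both lowest in control 6. Agrp, made by neurons that drive feeding, was at 0.687 CPM in control 6 and between 2.59 and 6.91 CPM in the other 9 libraries. Pomc, made by neurons that suppress feeding, was at 17.8 CPM in control 6 and between 32.3 and 62.7 CPM in the others. Hcrt, orexin, was lowest in intruder 4, at 40.8 CPM against 106 to 117 CPM in the other 4 intruder libraries, while the controls ran from 46.4 to 139 CPM.

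Among 41 receptor genes, 20 had a log2 fold change above 0, and 28 without control 6. Npy1r and Npy5r, receptors of neuropeptide Y, had the smallest unadjusted p of the list, 0.0546 and 0.0472. Npy1r was at 23.5 ± 1.44 CPM in controls and 27 ± 2.95 CPM in the intruder group (SD), and Npy5r at 7.01 ± 0.570 and 7.79 ± 0.563 CPM. Their log2 fold changes, 0.20 and 0.15, kept their sign in all alternative fits, and both overlapped between the groups. Both genes were named for their small p in these libraries, so the kept sign adds no support. Nr3c1, the glucocorticoid receptor, was at 105 ± 3.50 CPM in controls and 107 ± 4.54 CPM in the intruder group (SD). Of 28 hypothalamic transcription factors 19 were above 0, with a median of 0.12, and 15 of 28 without control 6, with a median of 0.02. Slc17a6, the vesicular glutamate transporter of hypothalamic neurons, was at 234 ± 43.7 CPM in controls and 267 ± 40.05 CPM in the intruder group (SD), and Slc32a1, the vesicular transporter of GABA, was at 283 CPM in control 6 and between 140 and 227 CPM in the other libraries.

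**Figure D4:**
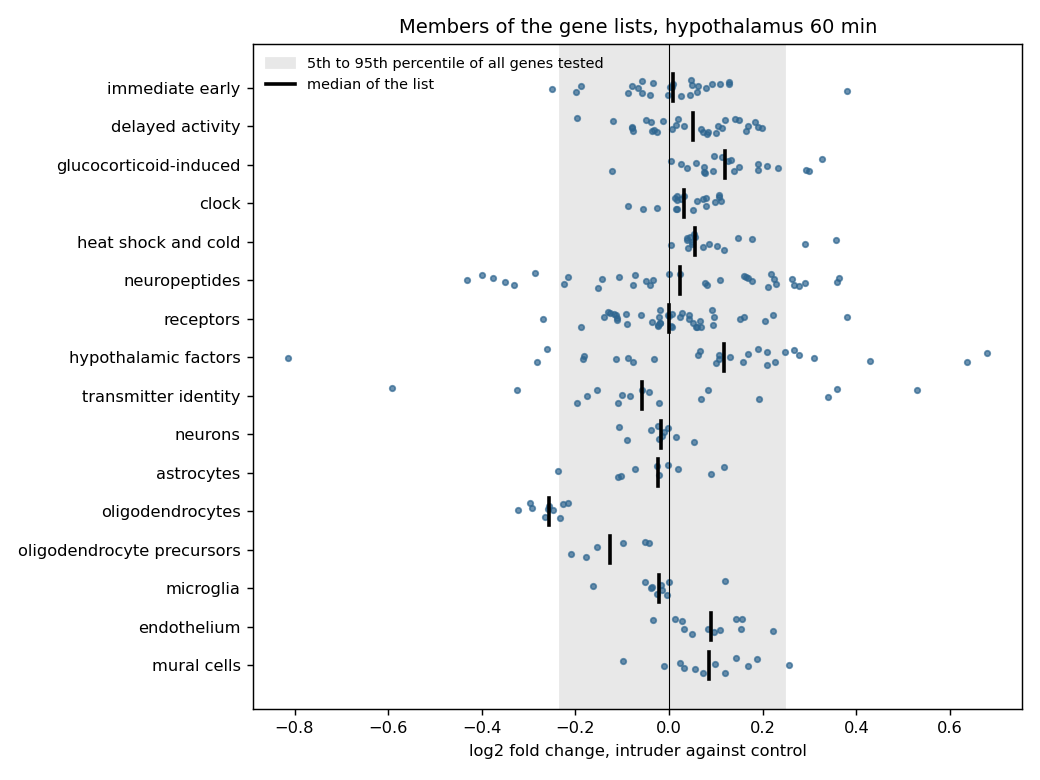
Log2 fold change (intruder against control) of every tested member of 16 gene lists, with the median of each list as a bar and the 5th to 95th percentile of all genes tested as a grey band. The band is the spread of single genes and no yardstick for the median of a list; the 10 oligodendrocyte genes lie between -0.32 and -0.22.

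Oligodendrocyte genes were the cell type list with the most even difference. All 10 had a log2 fold change below 0, with a median of -0.26, 4 had an unadjusted p below 0.05 (1.43% of all genes did so in this direction), 0 were called and 0 were without overlap. Mobp, a myelin protein, was at 1110, 1173, 1463, 1288 and 1314 CPM in the controls and at 1055, 922, 825, 1301 and 973 CPM in the intruder group. Cnp, a myelin enzyme, was at 445, 453, 506, 497 and 485 CPM in the controls and at 417, 358, 358, 474 and 402 CPM in the intruder group. In both genes intruder 4 lay within the control range, and intruder 2 and 3 were the lowest of all. The log2 fold changes were -0.32 ± 0.138 for Mobp and -0.25 ± 0.0954 for Cnp (SE), and Mal and Opalin, further myelin proteins, were at -0.27 and -0.29. The 10 genes are made by the same cells, so they are 1 observation of these libraries rather than 10, and in bulk tissue fewer oligodendrocytes and less RNA per cell cannot be told apart.

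The difference in the oligodendrocyte list was present in each of the subsets of libraries. All 10 genes remained below 0 when any 1 of the 10 libraries was left out (medians from -0.35 to -0.20) and among libraries of 1 leading index (median -0.22). The summed level of the list ran from 6959 to 9402 CPM in controls and from 6054 to 9089 CPM in the intruder group. The lowest sums were those of intruder 2 and 3, at 6364 and 6054 CPM, and of control 2, at 6959 CPM, which were also the 3 libraries with the highest Foxb1. The part of what Foxb1 marks in the oligodendrocyte values was not tested. At 30 min the median of the list was 0.00 and at 120 min 0.04, with 10 of 10 above 0 at 120 min.

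Genes of oligodendrocyte precursors were lower by less. All 6 had a log2 fold change below 0, with a median of -0.13, and 0 were called. When 1 library was left out the median ran from -0.17 to -0.08. Olig1, a factor of the lineage, was at 152, 159, 171, 174 and 185 CPM in the controls and at 152, 135, 141, 164 and 151 CPM in the intruder group, and Gpr17, a receptor of cells that are about to form myelin, at 115 ± 7.46 and 103 ± 6.06 CPM (SD). Their log2 fold changes were -0.18 ± 0.0648 and -0.15 ± 0.0519 (SE). Of 10 genes of newly forming oligodendrocytes, a list added after these values were seen, 7 were below 0, with a median of -0.09.

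Among the other main cell types of the brain, the medians were -0.02 for 10 neuronal genes, -0.02 for 10 astrocyte genes and -0.02 for 10 microglial genes, and 0 genes in these lists were called. Without control 6 the medians were 0.02, -0.03 and 0.02. The count above 0 then went from 2 to 8 of 10 neuronal genes and from 1 to 6 of 10 microglial genes, and stayed at 3 of 10 astrocyte genes. S100b, which astrocytes share with oligodendrocytes, was at 136, 159, 163, 149 and 151 CPM in the controls and at 127, 120, 121, 149 and 127 CPM in the intruder group, with intruder 4 again within the control range. Endothelial genes were above 0 in 11 of 12, with a median of 0.09, and when 1 library was left out in 8 to 12, with medians from 0.03 to 0.13. Mural genes were above 0 in 10 of 12, with a median of 0.09, in 7 to 11 when 1 library was left out (medians from 0.01 to 0.17) and in 5 of 12 among libraries of 1 leading index. Meningeal genes had a median of 0.41 in 8 genes, between 0.08 and 0.75 when 1 library was left out, and -0.02 among libraries of 1 leading index. Their summed level ran from 308 to 1115 CPM in controls and from 308 to 1820 CPM in the intruder group. Ptgds, given above, made up most of this sum in each library.

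Genes that every cell uses had small differences, and for the respiratory chain and the mitochondrial genes the direction turned with single libraries. Of 79 ribosomal protein genes 77 had a log2 fold change above 0, with a median of 0.05. When 1 library was left out between 52 and 79 did so, with medians from 0.01 to 0.07. Of 77 nuclear genes of the respiratory chain 47 were above 0, and between 17 (without control 3) and 71 (without control 6) when 1 library was left out. Of 12 mitochondrially encoded genes 2 were above 0, and between 0 and 10 when 1 library was left out. Reads of ribosomal and mitochondrial genes can be shared with pseudogenes.

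The effect of the intruder at 60 min was then compared with that at the neighbouring intervals, which came from separate animals. The groups at 30 min had 3 control and 5 intruder libraries, and those at 120 min 5 each, so the control means at 30 min rest on fewer animals. Against 30 min, 0 of 17676 genes were called as different in effect in edgeR's test (0%), with 283 at an unadjusted p below 0.05, 0 called by DESeq2 and 0 by limma voom. The column headers carry 1 tag in all 30 min libraries and another in all 60 and 120 min libraries, so a difference between 30 and 60 min cannot be told apart from what this tag marks. For Fos the mean was 36.1 CPM in controls and 52.3 CPM in the intruder group at 30 min, 24.3 and 23.2 CPM at 60 min, and 10.8 and 15.7 CPM at 120 min.

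Against 120 min, 4 genes differed in effect (0.0226% of 17676), all with a higher effect at 60 min, and all known from blood vessels: Rgs5, a G protein regulator of pericytes, Cd34, a surface protein of endothelium, Itm2a, a membrane protein of brain endothelium, and Ly6c1, an endothelial surface protein with close paralogs. Rgs5 was at 88.9, 61.8, 74.9, 81.8 and 80.1 CPM in the controls and at 90.5, 71, 81, 98.1 and 80.3 CPM in the intruder group at 60 min, and at 82 ± 7.62 and 49.8 ± 8.01 CPM at 120 min (SD, n = 5 each). The groups overlapped at 60 min and the difference lay at 120 min. The log2 fold change of Rgs5 was 0.12 at 60 min and -0.72 at 120 min, and the difference of 0.84 ± 0.136 (SE) had an adjusted p of 0.0274 in edgeR's quasi-likelihood test.

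Cd34, Ly6c1 and Itm2a were the other 3 genes. Cd34 was at 15.8 ± 1.46 and 16.1 ± 1.75 CPM in control and intruder at 60 min and at 15.2 ± 0.445 and 10.5 ± 0.871 CPM at 120 min (SD). Ly6c1 had a log2 fold change of 0.11 at 60 min and -0.56 at 120 min. Itm2a differed most at 60 min itself: it was at 62.1, 44.2, 44.3, 52.4 and 45.6 CPM in the controls and at 56.7, 64.8, 62, 59.2 and 53.3 CPM in the intruder group, a log2 fold change of 0.25 ± 0.0905 (SE), with control 1 inside the intruder range. The differences between times were 0.56, 0.67 and 0.72 for Cd34, Ly6c1 and Itm2a, each with an adjusted p of 0.0296 in edgeR's test.

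The number of genes that differed in effect between 60 and 120 min depended on single libraries and on the library index. It was 0 without intruder 1 or without intruder 4, 1 without control 6 or intruder 2, 2 without control 2 or intruder 3, 9 without control 1 and 11 without intruder 5. With the leading index as a term it was 0. At 120 min, controls 4 and 6 carried another leading index than controls 1, 2 and 3 and the intruder group. The term therefore sets controls 4 and 6 of 120 min apart, as it does intruder 1 and 2 of 60 min. The differences themselves kept their size in all of the alternatives fitted, at 0.77 to 0.89 for Rgs5, 0.51 to 0.60 for Cd34, 0.68 to 0.81 for Itm2a and 0.60 to 0.72 for Ly6c1. All 12 endothelial genes had a log2 fold change below 0 at 120 min, with a median of -0.53, and 5 were called as lower in the comparison at 120 min alone, where edgeR's test called 30 of 17676 genes as lower (0.17%). At 60 min the median was 0.09 and 0 were called.

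**Figure D5:**
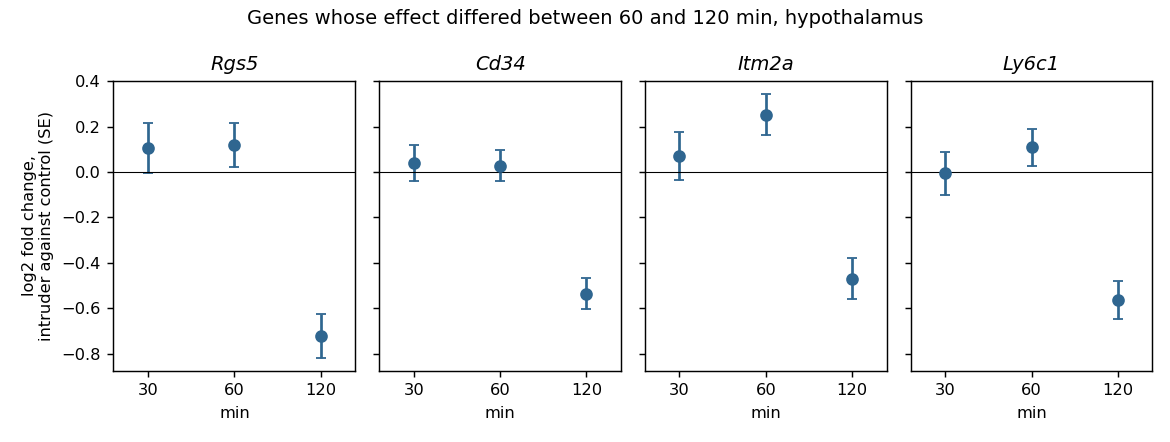
Log2 fold change (intruder against control) with its standard error at 30, 60 and 120 min for the 4 genes whose effect differed between 60 and 120 min. At 60 min the values lie between 0.03 and 0.25, and at 120 min between -0.72 and -0.47.

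The same 10 animals gave amygdala and frontal cortex, and a difference between the effect in hypothalamus and the mean effect in the other 2 regions was called in 0 of 17628 genes (0%), with 267 at an unadjusted p below 0.05 in edgeR's test and 0 called by DESeq2 or limma voom. The values of Tmem267 and of Mid1, the latter chosen after its values were seen, were also higher in the other regions of the same animals; the other genes without overlap were not counted in this way. Tmem267 had a log2 fold change of 0.51 ± 0.148 in amygdala and 0.63 ± 0.149 in frontal cortex (SE), against 0.47 in hypothalamus, and Mid1 0.90 ± 0.214 and 0.69 ± 0.214, against 0.71. Neither was called in any region, and the 3 regions are not independent since they share animals. Ddx20 and Pgap2 had log2 fold changes of -0.01 and 0.00 in amygdala and 0.02 and 0.00 in frontal cortex. The oligodendrocyte list had a median of -0.06 in amygdala and -0.19 in frontal cortex.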

How the data were processed

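RNA-seq read counts per gene were deposited by the authors as 1 table of raw counts with a column per library. Per the submitters' processing notes, CASAVA 1.8.2, TopHat2 2.0.8, HTSeq 0.6.1, edgeR 3.2.4 and R 3.0.0 were used and the build NCBIM37 was named, with no roles given. Libraries were stranded mRNA libraries per the labels' protocols, and whether counting used strand is not given in the sources used here. All value columns matched a sample.

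Of 37991 gene rows, 32919 were named from Gencode M21, and rows without a name held at most 0.672% of the reads of any of the 10 libraries. The 5 rows that name no gene were left out of library sizes and tests; reads with no feature came to between 11.7% and 13.2%. Gene counts were tested with edgeR 4.0.16 (R 4.3.3): TMM scaling, filterByExpr, and the quasi-likelihood test (two-sided) over all 28 hypothalamus libraries with 1 coefficient per group (6 groups), Benjamini-Hochberg adjustment over all genes, called below 0.05. The contrast between regions used the 30 libraries of 60 min. The fit was tested on simulated data. CPM, log2 fold changes and standard errors were computed here. Alternatives were DESeq2, limma voom, other scalings and filters, the 2 groups alone, a block, the library index, and each library left out.

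Genes named are the called ones, the 12 higher and 12 lower with the smallest unadjusted p at a mean of at least 1 CPM with a symbol, in each list up to 4 members by level and 3 by p, and called genes of the other contrasts; others are said to be chosen afterwards. Members and lists were chosen with earlier results of these data known. Some items are not reported here. Kiss1, Lhx8, Slc18a3 and Lhb were not analysed here, and list members with too few reads were not tested. Within each group, no 2 libraries agreed within sampling noise (chi-square per gene 8.41 to 28.0). The labels give an animal number for each library, and p-values measure the spread between these animals.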

Additional observations from a re-analysis of the deposited data

Results flagged for a closer look

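Of 166 groups of 5 values examined (78 genes in both groups and 5 library quantities), 8 held a library far from the other 4, by the gap to its neighbour over the group's range (above 0.71); chance alone gives about 1 in 20 such groups, or 8.3, but this rate does not apply to genes such as Lhx6, Slc32a1 and Hcrt that were chosen after their values were seen. Of these, 4 were control 6: Ttr at 194 CPM, Gh at 16.8 CPM, Lhx6 at 65.5 CPM and Slc32a1 at 283 CPM, all higher than in the other controls. Intruder 4 was high in S100b, at 149 CPM, and low in Hcrt, at 40.8 CPM. Control 2 was high in Mt1, at 151 CPM, and control 5 in Crem, at 17.1 CPM.

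The effect of the intruder differed between 60 and 120 min in edgeR's test of the difference for Rgs5 (0.84 on the log2 scale), Cd34 (0.56), Itm2a (0.72) and Ly6c1 (0.67). For Rgs5, Cd34 and Ly6c1 the log2 fold change at 60 min was 0.12 or less, and the values of both times stand in the results above.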

How the results depend on the processing

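For intruder against control at 60 min, for the difference from 30 min and for the difference from the other regions, the number of called genes was 0 in every alternative fitted; at 60 min between 258 and 670 genes had an unadjusted p below 0.05, and the smallest adjusted p was 0.114 (DESeq2, Tmem267 and Ttr) and 0.664 without intruder 4. The number of genes whose effect differed from that at 120 min was 4, and it was 25 in DESeq2, 1 with the replicate block, 0 with the leading index as a term, and between 0 and 11 when 1 library was left out; with other scalings, filters and limma voom it was 4 or 5. The cause was not tested. Replicate numbers of the groups do not pair the animals (correlations of deviations from -0.363 to 0.0749 over numbers 1, 2, 3 and 5), and the replicate block gave 0 called genes at 60 min.

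Of 47 genes followed through the alternatives at 60 min, 45 kept their sign in all alternatives that tested them. The 47 include the 24 genes picked by p from the same libraries, for which a kept sign adds no support. Fos ran from -0.119 to 0.0044 when 1 library was left out, and was above 0 without control 2 (0.0016) or intruder 2 (0.0044). Fkbp5 was at -0.0277 in the libraries of 1 leading index and, from the same libraries, with the leading index as a term. No alternative called any of the 47. Fold changes at 60 min of other genes, such as Rgs5 and Ly6c1, were not followed gene by gene. Of the gene lists, 3 changed their count of members above 0 in the libraries of 1 leading index, without intruder 1 and 2. The count went from 21 to 9 of 22 for glucocorticoid-induced genes, from 16 to 9 of 19 for clock genes and from 10 to 5 of 12 for mural genes. The fit with the index as a term gave the same counts, since at 60 min it sets the same libraries apart. With the replicate block the count went from 10 to 5 of 12 for mural genes and from 11 to 6 of 12 for endothelial genes. These counts of members were added after the data were seen. At the depth of these libraries, 1 CPM corresponds to 43.2 to 54.1 reads in a library, so counting error limits mainly the genes near or below that level.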

Other observations

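The lists of neighbouring tissue that no comparison above turns on held no called gene at 60 min. Ependymal cell and tanycyte genes, of the cells that line the third ventricle, had a log2 fold change above 0 in 5 of 10, with a median of 0.02, and in 4 to 7 when 1 library was left out. Thalamic genes were above 0 in 8 of 9, with a median of 0.08; when 1 library was left out the count ran from 4 to 8 and the median from -0.07 to 0.16. Cortical genes were above 0 in 5 of 9, with a median of 0.06, and medians from -0.05 to 0.08 when 1 library was left out. Striatal genes were above 0 in 2 of 8, with a median of -0.25, and -0.06 without control 6. Blood genes were above 0 in 5 of 5, with a median of 0.12, and this count ran from 0 to 5 when 1 library was left out. Pituitary genes were above 0 in 3 of the 6 tested, and in 2 to 5 when 1 library was left out, and their summed level ran from 2.66 to 17.6 CPM in controls and from 1.90 to 14.98 CPM in the intruder group.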
